A study of Mus musculus with 9 samples.

Results

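The clustered protocadherins, cell-surface adhesion proteins encoded side by side on mouse chromosome 18, were examined in RNA-seq libraries of the main olfactory epithelium (MOE), which holds the odour-sensing neurons. Members were taken by symbol, as every gene row named Pcdha, Pcdhb, Pcdhga or Pcdhgb with a number, and Pcdhac1, Pcdhac2, Pcdhgc3, Pcdhgc4 and Pcdhgc5. This gave 58 of 24421 gene rows, namely 14 alpha, 22 beta and 22 gamma genes. No measured value entered this rule, although it was set with earlier results of these data known. The 9 mice came from 1 line made with CRISPR-Cas9, in which TAAR enhancer 1, a noncoding element of the Taar olfactory receptor cluster on chromosome 10, was deleted, and they fell into 3 wild-type (WT), 3 heterozygous (het) and 3 homozygous (homo) littermates. The labels give strain C57BL/6 and postnatal day 14 for all 9, whereas the reporting summary of the study describes this line as older and of mixed background, which was not resolved. The question asked of the data was whether a second gene family chosen at random in olfactory sensory neurons (OSNs) differed in level between the genotypes.

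Each alpha or gamma gene consists of a long variable exon with its own promoter, which is spliced to constant exons shared by all genes of that cluster. Beta genes are single long exons without a constant part. A neuron switches on a few of the alternate promoters, a choice known to be random and to use promoter sites bound by CTCF, looping by cohesin to distant enhancers, and DNA methylation of the promoters that stay silent. The C-type genes at the ends of the alpha and gamma clusters are expressed in a more regular way, cell type by cell type. The proteins bind only copies of themselves on the opposite membrane, so the set a neuron makes works as a surface identity, and in OSNs this identity takes part in the sorting of axons into glomeruli of the olfactory bulb.

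Library sizes ranged from 24583906 to 32631951 reads assigned to genes. On the scale of CPM, counts brought to a common library size, 3 reads then amount to 0.0916 to 0.122 CPM. Such limits cover counting error only. The deleted enhancer is not itself measured, and the genotype labels were checked on the 14 olfactory Taar genes, whose summed level was 44.6 to 44.9 CPM in WT, 36.3 to 38.8 CPM in het and 19.3 to 25.3 CPM in homo libraries. Mature OSN markers, 8 genes with Omp and Cnga2 among them, summed to between 8312 and 9224 CPM in every library, so the labelled tissue was borne out by its markers. Within that range they stood at 8312 to 8359 CPM in WT, 8313 to 8960 CPM in het and 8529 to 9224 CPM in homo libraries. Vomeronasal markers, the Vmn1r and Vmn2r receptor genes and the channel gene Trpc2, were taken to mark a neighbouring sense organ. Their sum reached 67.9 CPM in het replicate 1, 120 CPM in homo replicate 2 and 69.5 CPM in homo replicate 3. In the other libraries it was 14.6 to 17.3 CPM.

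The family lies between positions 36930285 and 37841873 of chromosome 18 in GRCm38, with every member on the plus strand and the alpha, beta and gamma clusters following each other in that order. Reads in the constant exons belong to several genes at once, and a counter that drops ambiguous reads leaves them out. The deposited counts hold a separate row of ambiguous reads (1.29 to 1.35% per library), so such reads were set aside. Whether those of the constant exons were among them is not stated. The count of an alpha or gamma gene was taken to stand for its own variable exon. Levels were therefore compared between genes as CPM per kb. For alpha and gamma genes the length was that of the exon that no other family member holds. For beta genes it was the whole gene in RefSeq, which for some is shorter than their exons in GENCODE. Of 58 members, 55 had at least 10 reads over the 9 libraries and were tested. Pcdha4, Pcdha6 and Pcdha7 had 0 reads in all 9. For each of these 3 genes RefSeq also lists a read-through gene that starts at or beside its variable exon and ends with the gamma cluster. These overlapping rows held 4, 11 and 13 reads in all, and reads in exons common to both cannot be assigned to either, so the 3 zeros do not show that the genes were silent.

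The 3 most abundant members, by the lengths given above, kept their places in every library, while by whole exonic length Pcdhac2 ranked 6 at 4.35 CPM per kb. In all 9, Pcdhb1 came first, Pcdhgc3 after it and Pcdhac2 next. Pcdhb1 is the first gene of the beta cluster, at 37264998 to 37267454, and its promoter is known to lack the CTCF-bound element that most clustered protocadherin promoters carry. Its level in WT mice was 62.1 ± 2.60 CPM per kb (SD, n = 3), and 6 genes together supplied 50% of all family reads in every genotype. Pcdhb1 alone took 24.2 to 27.0% of them. At the other end, 35 genes in WT and het and 36 in homo mice were needed to reach 90%. The whole family amounted to between 0.0552 and 0.0617% of the reads counted in genes.

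**Figure D1:**
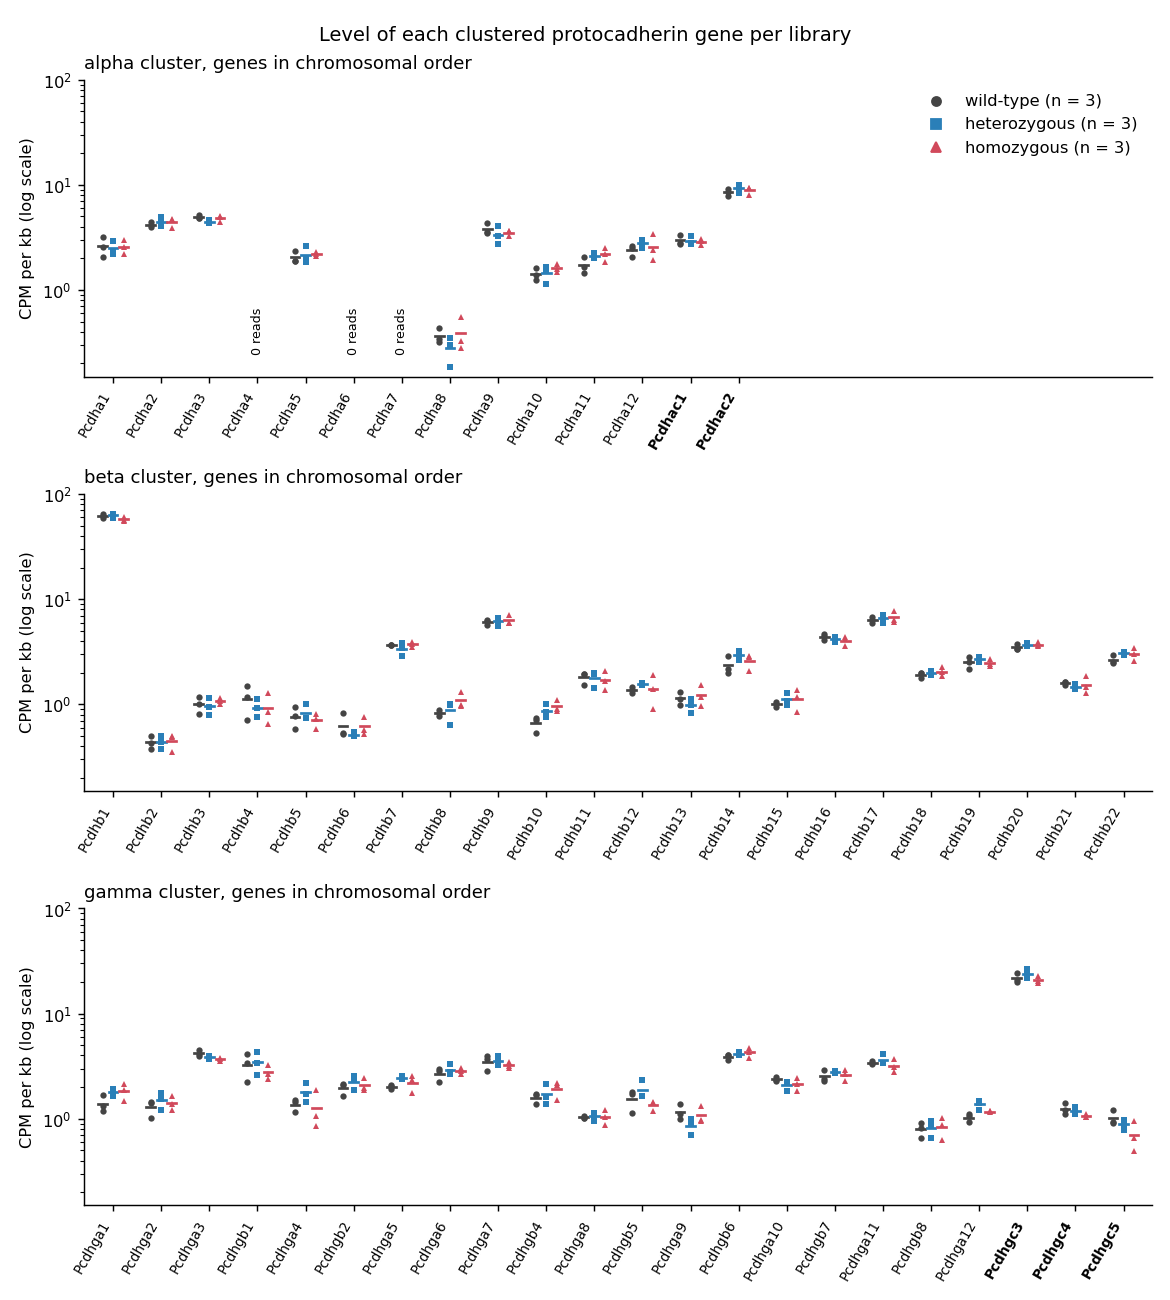
Level of each clustered protocadherin gene in CPM per kb (log scale) against gene order, one panel per cluster. Lengths are unshared exon for alpha and gamma genes and the RefSeq gene for beta genes. Points are 3 libraries per genotype, with their mean as a short line. C-type genes are in bold, and the 3 genes with 0 reads carry that label. Pcdhb1, Pcdhgc3 and Pcdhac2 stand above all other genes in all 9 libraries, and the 3 genotypes lie close together within each gene.

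Among alpha genes, the proteins first described as cadherin-related neuronal receptors, the C-type gene Pcdhac2 was the highest at 8.46 ± 0.636 CPM per kb in WT mice (SD, n = 3). It is the last gene of its cluster, at 37143678 to 37187663, and is known for its part in the even spacing of serotonergic axons. Pcdha3 followed at 4.97 ± 0.169 and Pcdha2 at 4.15 ± 0.224 CPM per kb, and these neighbours in the order differed by more than their SDs in WT mice. In het mice they stood at 4.46 ± 0.160 and 4.47 ± 0.432, and in homo mice at 4.80 ± 0.356 and 4.40 ± 0.462 CPM per kb. Pcdha1, the first gene, stood at 2.60 ± 0.565 CPM per kb. Pcdha8, named after its values were seen, was the lowest gene with reads, at 0.367 ± 0.0620 CPM per kb. Across the 9 alternate alpha genes with reads the highest mean was 13.5 times the lowest. This range rests on Pcdha8, since the next lowest of them, Pcdha10 (also named after its values were seen), stood at 1.42 ± 0.190 CPM per kb.

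The beta genes held 55.1% of the family's reads in WT mice, 48.0% of these from Pcdhb1. The next 2 by level, Pcdhb17 at 6.33 ± 0.379 CPM per kb and Pcdhb9 at 6.10 ± 0.352 CPM per kb (SD, n = 3), did not differ beyond their spread. Pcdhb2 at 0.434 ± 0.0596, Pcdhb6 at 0.623 ± 0.170 and Pcdhb10 at 0.660 ± 0.107 CPM per kb were the lowest, and Pcdhb2 was next to last or last in every library. Pcdhb1 thus exceeded Pcdhb2, its neighbour in the cluster, 143-fold. Pcdhb22, the last beta gene, reached 2.66 ± 0.248 CPM per kb. The beta order depends on the length used. Another length was GENCODE exon that no other gene of the same strand holds, read-through genes aside. Per kb of it, Pcdhb17 stood at 4.44, Pcdhb9 at 6.10 and Pcdhb22 at 1.33 CPM per kb. By that length Pcdhb8 (0.561 CPM per kb, named after this was seen) was below Pcdhb6 (0.594) and Pcdhb10 (0.658).

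In the gamma cluster Pcdhgc3 stood out at 21.6 ± 2.24 CPM per kb (SD, n = 3). This C-type protein is known to bind Axin1 and to restrain Wnt signalling. It spans 37806410 to 37841873, and 1513 of its 2568 own bases overlap an annotated antisense gene, which counting without strand could not tell apart. The highest alternate genes were Pcdhga3 at 4.20 ± 0.317 and Pcdhgb6 at 3.90 ± 0.255 CPM per kb, which did not differ beyond their spread. Pcdhgb8, annotated as a transcribed pseudogene, was the lowest at 0.795 ± 0.135 CPM per kb. Pcdhgc5 at 1.01 ± 0.169 and Pcdhga12 at 1.03 ± 0.0887 CPM per kb came next and were alike. Pcdhga1, the first gene of the cluster, had 1.39 ± 0.265 CPM per kb. Among alternate gamma genes the highest mean was 4.09 times the lowest over the 12 A-type genes and 4.90 times over the 7 B-type genes.

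The remaining C-type genes were far below Pcdhgc3 and Pcdhac2. Pcdhac1 stood at 2.97 ± 0.319 CPM per kb and Pcdhgc4, the one gamma gene known to be needed for the survival of neurons, at 1.25 ± 0.149 CPM per kb (SD, n = 3). The 5 C-type genes thus covered a 21.3-fold range, and Pcdhgc4 and Pcdhgc5 differed by less than 1.5-fold. The order of all 55 genes was much the same from mouse to mouse. Over the 36 pairs of libraries Spearman's rho of the levels ranged from 0.94 to 0.98, and it was 0.94 to 0.97 over the 27 pairs of different genotypes. These correlations are across genes, which share libraries and length scale, and are given as a description.

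The first comparison was between homozygous and wild-type mice. The summed level of the family was 593, 587 and 551 CPM in the WT libraries and 570, 552 and 593 CPM in the homo libraries. The groups overlapped, and the means differed by -0.962%. In bulk tissue, fewer cells of a type and less RNA per cell cannot be told apart. Alpha genes summed to 91.0 ± 5.83 CPM in WT and 94.0 ± 3.18 CPM in homo mice (SD, n = 3), beta genes to 318 ± 7.95 and 312 ± 6.04 CPM, and gamma genes to 168 ± 12.0 and 165 ± 13.0 CPM. All of these differences were smaller than the SDs.

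**Figure D2:**
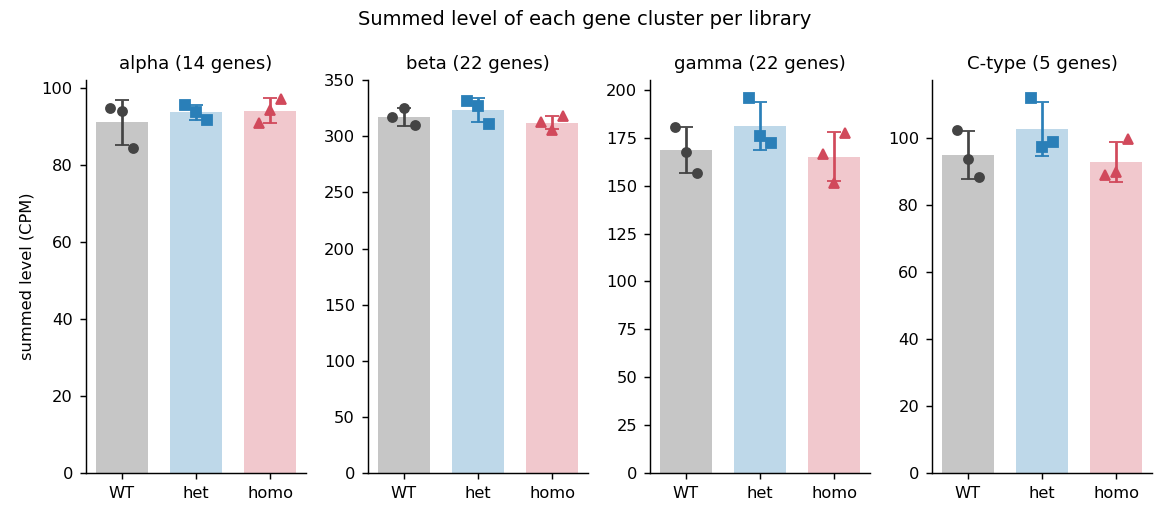
Summed level in CPM of the alpha, beta, gamma and C-type genes by genotype. Bars are means of 3 libraries, error bars are SD and points are libraries. The gamma sum was highest in het replicate 1 (196 CPM) and lowest in homo replicate 2 (152 CPM), and the libraries of the genotypes overlap in every panel.

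Gene by gene, 0 of 55 members passed the threshold of 0.05 in this comparison by the edgeR quasi-likelihood test with Benjamini-Hochberg adjustment over all 20213 genes tested, of which 0.0495% passed it and were called. The smallest adjusted p of a member was 0.431. An unadjusted p under 0.05 was reached by 4 members (7.27%), 3 higher and 1 lower, against 9.26% of all genes. This count was 1 without WT replicate 2, 0 without homo replicate 1, and 6 without homo replicate 3. Log2 fold changes ran from -0.52 to 0.54, with a median of 0.052 beside -0.00057 over all genes, and 32 members were higher and 23 lower. Without WT replicate 3 this median was 0.019, without homo replicate 1 it was 0.016, without homo replicate 2 it was 0.092, and without homo replicate 3 its sign turned (-0.0059). The 95% interval lay within 1.5-fold either way for 44 of 55 members and within 2-fold for 54. All 3 homo libraries stood apart from all 3 WT libraries for 4 members (7.27%), where 15.4% of all genes tested did so.

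**Figure D3:**
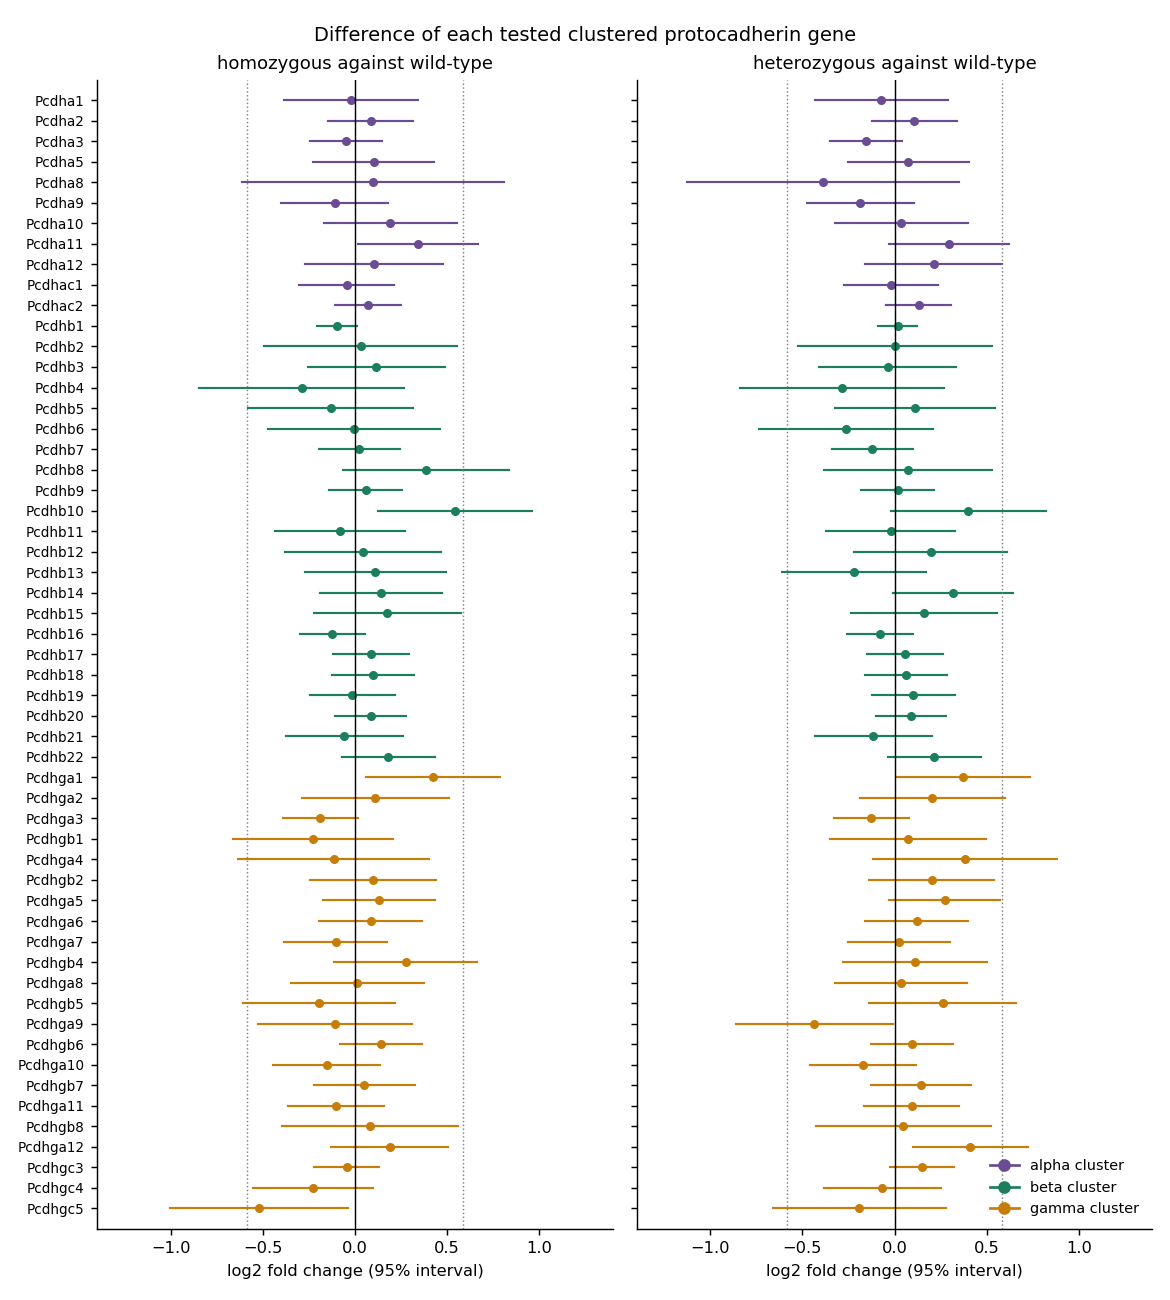
Log2 fold change of the 55 tested members in chromosomal order, homozygous (left) and heterozygous (right) against wild-type mice, with 95% intervals from edgeR. Dotted lines mark 1.5-fold. No point lies beyond 1.5-fold in either panel, and most intervals include 0.

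Among the C-type genes, Pcdhac2 had 25.6, 27.6 and 23.7 CPM in WT and 24.5, 28.0 and 28.3 CPM in homo libraries. The groups overlapped, with a log2 fold change of 0.069 (95% interval -0.11 to 0.25, edgeR adjusted p = 0.866) that lay between 0.020 (without WT replicate 3) and 0.14 (without homo replicate 1) when 1 library was left out. It was -0.070 without the 3 libraries rich in vomeronasal reads, a fit that compares 1 homo library with 3 WT libraries. Pcdhac1 differed by -0.046 (-0.30 to 0.21) and Pcdhgc3 by -0.045 (-0.22 to 0.13) on the log2 scale, both within their intervals around 0, and for both the sign turned when WT replicate 1 was left out (0.044 and 0.042). It also turned for Pcdhac1 without homo replicate 1 (0.0064) and for Pcdhgc3 without homo replicate 2 (0.0080). Pcdhgc4 differed by -0.23 (-0.55 to 0.095). Pcdhgc5 had 2.37, 2.44 and 3.17 CPM in WT and 1.73, 1.30 and 2.51 CPM in homo libraries. Homo replicate 3 fell inside the WT range, and the log2 fold change of -0.52 (-1.01 to -0.036) had an unadjusted p of 0.0369 and an edgeR adjusted p of 0.512. It was -0.33 without homo replicate 2 and -0.80 without homo replicate 3, and Pcdhgc4 differed by -0.13 without WT replicate 1.

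The alternate genes with the smallest p-values were each as uncertain. Pcdhb10 had 2.09, 1.53 and 2.01 CPM in WT and 3.10, 2.44 and 2.59 CPM in homo libraries. The groups did not overlap, and the log2 fold change was 0.54 (95% interval 0.13 to 0.96), with an unadjusted p of 0.0139 and an edgeR adjusted p of 0.431. Pcdhga1 had 4.34, 3.02 and 3.36 CPM in WT and 5.57, 4.88 and 3.83 CPM in homo libraries, with a log2 fold change of 0.42 (0.058 to 0.79) and overlapping groups. Pcdha11 had 5.18, 4.15 and 3.63 CPM in WT and 6.20, 4.63 and 5.53 CPM in homo libraries. Its difference was 0.34 (0.015 to 0.67), and 2446 of its 2500 own bases overlap antisense annotation in the same way. Pcdhga3, the highest alternate gamma gene, was lower in each homo library (9.30, 9.59 and 9.90 CPM) than in any WT library (10.7, 11.8 and 10.2 CPM), by -0.19 (-0.39 to 0.016) on the log2 scale with an edgeR adjusted p of 0.584, and by -0.12 without WT replicate 2. Pcdhb1, the most abundant member, had 153, 159 and 146 CPM in WT and 138, 140 and 150 CPM in homo libraries, with an overlap of 1 library on each side and a log2 fold change of -0.098 (-0.21 to 0.0092).

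**Figure D4:**
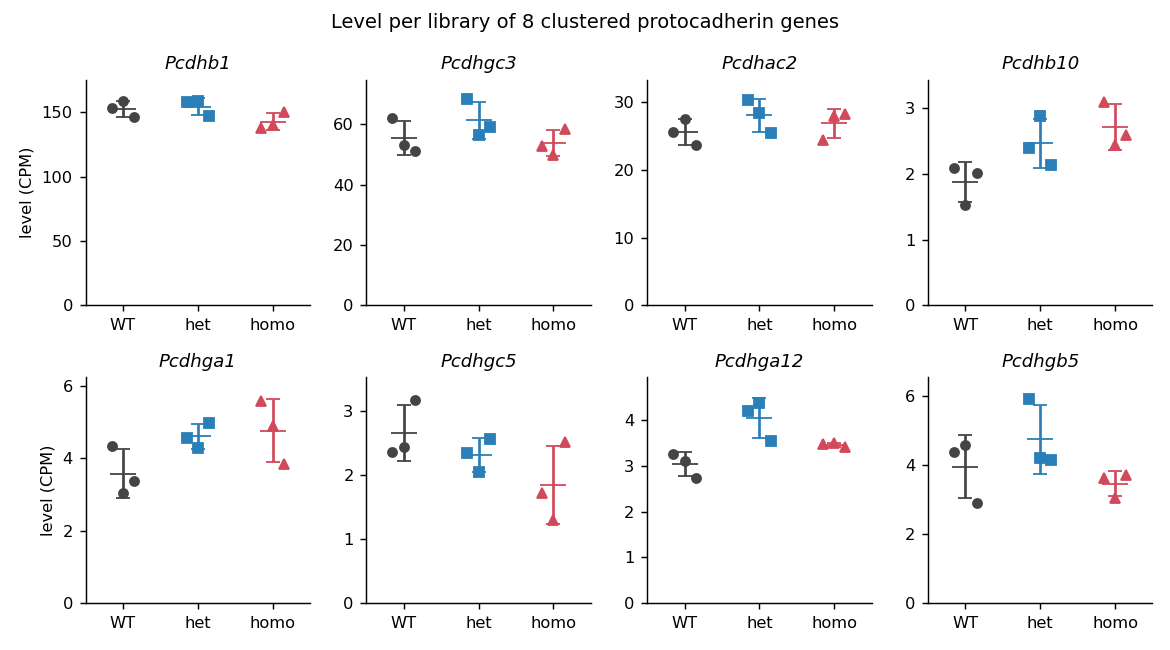
Level in CPM by genotype for the 3 most abundant members (Pcdhb1, Pcdhgc3, Pcdhac2) and 5 members with small p-values in one of the comparisons. Points are libraries, dashes are means of 3 and bars are SD. WT and homo libraries overlap for Pcdhb1, Pcdhgc3, Pcdhac2, Pcdhga1, Pcdhgc5 and Pcdhgb5.

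Heterozygous mice carry 1 intact copy of the enhancer, and were next compared with wild-type mice. Here too 0 of 55 members were called by edgeR, where 0.00495% of all genes were, and the smallest adjusted p of a member was 1.000. An unadjusted p under 0.05 was reached by 3 members (5.45%), 2 higher and 1 lower, against 3.25% of all genes. Leaving out 1 library at a time gave between 1 (without het replicate 1) and 5 members (without WT replicate 1 or het replicate 3), and leaving out the 3 libraries rich in vomeronasal reads, with 2 het mice remaining, gave 0. The median log2 fold change was 0.072, beside 0.0033 over all genes, with 37 members higher and 18 lower, and it was 0.035 without WT replicate 3 and 0.045 without het replicate 1. Gamma genes contributed most of that surplus, 17 higher and 5 lower, and summed to 181 ± 12.5 CPM against 168 ± 12.0 CPM in WT mice (SD, n = 3), so the difference was close to the SD of either group. In het replicate 1, the library with the highest gamma sum, 17 of 22 gamma genes were above their own median over the 9 libraries. There 14 of 22 beta and 4 of 11 alpha genes were also above theirs. Since the library was picked by its gamma sum, its gamma count adds no separate evidence. The libraries did not overlap for 8 members (14.5%), 5 higher and 3 lower, against 8.68% of all genes.

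Pcdhga12 had the smallest p. It had 3.25, 3.12 and 2.75 CPM in WT, 4.20, 4.39 and 3.55 CPM in het and 3.49, 3.49 and 3.40 CPM in homo libraries, so that each het library was above all others. Its log2 fold change in het against WT mice was 0.41 (95% interval 0.098 to 0.72), with an unadjusted p of 0.0135 and an edgeR adjusted p of 1.000. Pcdhga1 was higher by 0.37 (0.0096 to 0.74), with 4.56, 4.27 and 4.97 CPM in het libraries, and 1 WT library reached into that range. Pcdhb10 differed by 0.40 (-0.018 to 0.82) and had 2.39, 2.87 and 2.13 CPM in het libraries, all above the WT libraries given before. The difference of both genes from WT in het and in homo mice rests on the same 3 WT libraries. Pcdhb14 had 7.39, 9.93 and 6.84 CPM in WT and 11.0, 10.1 and 9.13 CPM in het libraries, a log2 difference of 0.32 (-0.0079 to 0.64) with 1 overlapping library on each side. Pcdhga9 was lower, with 2.35, 1.81 and 2.57 CPM in het and 2.89, 3.60 and 2.59 CPM in WT libraries, by -0.44 (-0.86 to -0.0093) on the log2 scale. The gap between the nearest libraries of these groups was a few hundredths of 1 CPM. Without WT replicate 2 the log2 differences of Pcdhb14, Pcdhb10 and Pcdhga9 were 0.50, 0.26 and -0.29.

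Homozygous against heterozygous mice gave 0 called members of 55 as well, against 0.114% of all genes by edgeR, with a smallest adjusted p of 0.424. An unadjusted p under 0.05 was reached by 3 members (5.45%), all lower in homo mice, against 10.4% of all genes, and this count was 8 without homo replicate 3, 5 without het replicate 3 and 1 without homo replicate 1 or 2. The median log2 fold change was -0.023, beside -0.0017 over all genes, and ran from -0.054 without het replicate 2 to 0.0061 without homo replicate 2 (-0.010 without het replicate 1, -0.040 without homo replicate 1 or 3). Higher and lower members numbered 7 and 4 for alpha, 12 and 10 for beta, and 6 and 16 for gamma genes. The gamma sum was 165 ± 13.0 CPM in homo and 181 ± 12.5 CPM in het mice (SD, n = 3), with overlapping libraries. It changed by -8.88%, and by -12.2 to -5.11% when 1 library was left out. All 5 C-type genes, Pcdhgc3 among them, were lower, and their sum changed by -9.51%. Libraries did not overlap for 3 members (5.45%), against 14.1% of all genes. Pcdhgb5 had 5.91, 4.20 and 4.16 CPM in het and 3.63, 3.05 and 3.71 CPM in homo libraries, a log2 difference of -0.46 (95% interval -0.86 to -0.048, edgeR adjusted p = 0.424) with no overlap. Pcdhgc3 had 68.4, 56.6 and 59.2 CPM in het and 53.0, 49.9 and 58.4 CPM in homo libraries, a difference of -0.19 (-0.37 to -0.018), het replicate 1 was the highest of all 9 libraries, and homo replicate 3 fell inside the het range. Pcdhb1 differed by -0.12 (-0.22 to -0.0078). Pcdhga4 had 5.66, 4.50 and 3.79 CPM in het and 2.75, 2.24 and 4.87 CPM in homo libraries, with a difference of -0.50 (-1.005 to 0.0062) and homo replicate 3 inside the het range. It was -0.29 without homo replicate 2, -0.33 without het replicate 1 and -0.89 without homo replicate 3. Pcdhb13 stood the other way, with 4.17, 3.63 and 3.04 CPM in het and 4.37, 3.58 and 5.65 CPM in homo libraries and a difference of 0.33 (-0.061 to 0.72), which was 0.14 without homo replicate 3. Without het replicate 1 the difference of Pcdhgb5 was -0.27 and that of Pcdhgc3 -0.11.

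A joint test of all 3 genotypes called 0 members, where 0.0643% of all genes were called, and 2 members had an unadjusted p under 0.05, against 8.45% of all genes. DESeq2 without independent filtering also called 0 members in each comparison, while it called 0.267% of all genes in homo against WT, 0.0148% in het against WT, 0.623% in homo against het and 0.515% for any difference. The 95% intervals, which are not adjusted for the number of genes, had a median half-width of 0.33 on the log2 scale in homo against WT mice. Smaller differences of a typical member were not detectable at this depth and number of mice. Larger ones also went uncalled after adjustment, such as 0.54 for Pcdhb10 and -0.52 for Pcdhgc5, so the 0 calls do not exclude differences above the half-width.

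The spread of the members between mice of 1 genotype was wider than counting error for most genes. The coefficient of variation (CV, the SD between mice of a genotype as a share of their mean) had a median of 13.8% over 55 members, and 1.60 times what counting error alone gives. It exceeded counting error more than 2-fold for 13 members and lay below it for 7. Pcdhgc3 had the largest excess, with a CV of 9.54%, 3.73 times counting error, and Pcdhgb1 followed at 23.6% and 3.45 times. Pcdhgb1 had 10.7, 8.92 and 5.88 CPM in the WT libraries alone. Pcdhb4, with 4.34, 5.56 and 2.67 CPM in WT, came next at 30.5% and 2.95 times counting error (these genes were named after their values were seen). Pcdhb1, the member with the most reads, had a small CV of 4.34%, which was still 2.77 times counting error. Set beside all genes tested of a like mean count, 38 of the 55 members (69.1%) were above the median CV of their bin and 15 were above its upper quartile.

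**Figure D5:**
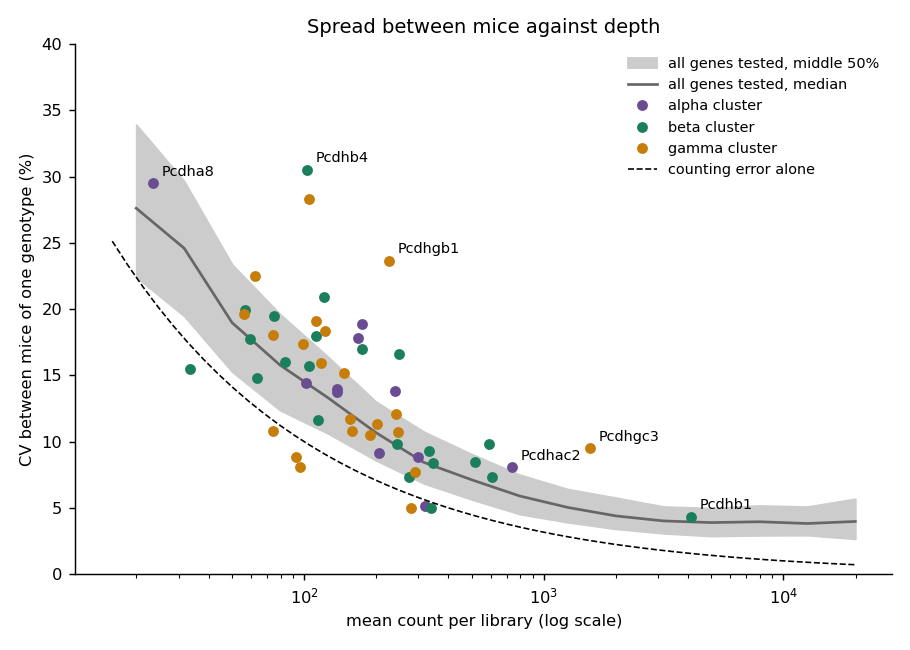
CV between mice of one genotype (%) against mean count per library (log scale) for the 55 members by cluster, over the median and middle 50% of all genes tested in bins of 0.2 on the log10 scale. The dashed line is counting error alone. Members follow the fall of the CV with depth, and Pcdhgc3, Pcdhgb1 and Pcdhb4 lie above the grey band.

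Genes that act on protocadherin choice were measured beside the family. Of 18 listed factors 17 were found and tested, and 0 were called in any of the comparisons by edgeR. At an unadjusted p under 0.05 there were 0 in homo against WT and 0 in het against WT. In homo against het there were 2, where 10.4% of all genes reached it. Ctcf, whose protein binds the alternate promoters and their enhancers, had 128.5 to 134.0 CPM in WT and 124.2 to 127.6 CPM in homo libraries. These did not overlap, as was so for 15.4% of all genes tested. Its log2 fold change was -0.066 (95% interval -0.15 to 0.022, edgeR adjusted p = 0.663). Smchd1, which helps to silence the clusters, differed by -0.029 (-0.14 to 0.080). Dnmt3b, the DNA methyltransferase that marks silent alternate promoters, was low at 9.78 ± 0.157 CPM in WT and 8.78 ± 0.303 CPM in homo mice (SD, n = 3), a difference of -0.16 (-0.38 to 0.068). Dnmt3a, a related enzyme, had the smallest p of this list with a log2 fold change of 0.087 (-0.0011 to 0.17).

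Binding partners and signalling effectors of the proteins, 11 genes, also had 0 calls by edgeR in each comparison. Of them 3 had an unadjusted p under 0.05 in homo against WT mice, where 9.26% of all genes did. Prkca, a protein kinase C gene, had the smallest p, with 53.2 ± 1.61 CPM in WT and 46.9 ± 3.03 CPM in homo mice (SD, n = 3) and a log2 fold change of -0.18 (95% interval -0.30 to -0.063, edgeR adjusted p = 0.356). The 12 protocadherin genes outside the clusters had 0 calls by edgeR. Of these 12, 2 had an unadjusted p under 0.05 in homo against WT mice, where 9.26% of all genes did. Pcdh8, an activity-regulated protocadherin, was at 45.4 ± 5.67 CPM in WT and 54.3 ± 3.60 CPM in homo mice, a difference of 0.26 (0.060 to 0.46, edgeR adjusted p = 0.431). The other, Pcdh20 (named after its values were seen), was low and went the other way. It had 1.56 ± 0.157 CPM in WT and 0.845 ± 0.514 CPM in homo mice, a difference of -0.86 (-1.59 to -0.14, edgeR adjusted p = 0.456). For Dscam and Dscaml1, immunoglobulin proteins with a part in neurite self-avoidance, 0 were called, and Dscaml1 differed by 0.037 (-0.088 to 0.16). DESeq2 called 2 genes of all these lists, both in homo against het mice and both named after this was seen, the kinase gene Fyn (log2 fold change 0.23, DESeq2 adjusted p = 0.0190 with default settings) and the protocadherin gene Pcdh18 (-0.34, adjusted p = 0.0190), for which edgeR gave an adjusted p of 0.121 each.

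Cell type markers were read in the same libraries, since several cell types of the MOE can express protocadherins. Of 11 marker lists none had a gene called by edgeR in any comparison. The summed level did not overlap between homo and WT libraries for mature OSN (values above), immature OSN, ciliated respiratory, endothelial and vomeronasal markers. Immature OSN markers (5 of 5 genes detected) summed to 1734 to 1753 CPM in WT, 1647 to 1834 CPM in het and 1804 to 1855 CPM in homo libraries. Ciliated respiratory markers (4 of 4) summed to 331 to 375 CPM in WT, 279 to 405 CPM in het and 285 to 328 CPM in homo libraries. Endothelial markers (3 of 3) summed to 70.8 to 70.9 CPM in WT, 68.9 to 76.7 CPM in het and 60.7 to 65.0 CPM in homo libraries, and the part of all these cell types in the values of the members was not tested. Fibroblast markers (5 of 5) were highest in het replicate 1 at 13301 CPM and lowest in homo replicate 2 at 10375 CPM, the same libraries that had the highest and the lowest gamma sums, and their part in these sums was not tested. Markers of olfactory bulb neurons (8 of 8) summed to between 188 and 201 CPM in all 9 libraries. The library richest in vomeronasal reads, homo replicate 2, had the lowest gamma sum, while het replicate 1, also rich in them, had the highest. Leaving out the 3 libraries rich in vomeronasal reads leaves 1 homo and 2 het mice, too few to show whether the counts of called members rest on them.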

How the data were processed

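RNA of the whole MOE of 9 mice was polyA-selected and sequenced by the authors with a strand-specific kit. The submitters' processing notes name Trimmomatic 0.36, HISAT2 2.1.0, HTSeq 0.6.1p1 and DESeq2 1.20.0 and the build GRCm38, the study itself names featureCounts, and the annotation and strand setting of the count are not given in the sources used here. The authors deposited raw counts per gene, which were used here, and a normalized signal, the same counts divided by 1 size factor per library (0.903 to 1.20), which was used only to check the counts. Rows that name no gene were left out. Reads in no gene were 21.6 to 22.4% per library, reads mapped to several places 16.9 to 19.4%, and ambiguous reads 1.29 to 1.35%.

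Members and gene lists were chosen with earlier results of these data known. Genes with at least 10 counts over the 9 libraries (20213) were fitted with edgeR 4.0.16 in R 4.3.3 (TMM, quasi-likelihood test, genotype as the only term, all 9 libraries, Benjamini-Hochberg over all genes tested, threshold 0.05). No test was made over members. CPM used TMM library sizes. Lengths came from RefSeq and from GENCODE transcripts matched by accession for 57 of 58 members. Libraries of 1 genotype differed beyond sampling noise (lowest chi-square per degree of freedom 4.34). Alternatives were DESeq2 size factors, DESeq2 1.42.0, other filters (22058 or 17847 genes), a replicate block, fits on only the 6 libraries of a comparison, and fits without 1 or 3 libraries. The fit was tested on simulated counts with 2-fold changes, larger than any measured for a member. How it fares with smaller changes was not tested.

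Genes are named by a fixed rule: the C-type genes, the 5 smallest p-values per comparison, the 3 highest and 3 lowest per cluster in WT, the first and last of each cluster, and from each gene list the smallest p-value in homo against WT, with Ctcf, Smchd1 and Dnmt3b.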

Additional observations from a re-analysis of the deposited data

How the results depend on the processing

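All counts of called members stayed at 0 under each alternative tried, and the median log2 fold changes of the members moved by less than the spread between libraries, although leaving out 1 library ran them from -0.0059 to 0.092 (homo against WT), 0.035 to 0.091 (het against WT) and -0.054 to 0.0061 (homo against het). Of the listed choice, partner and related genes, 2 were called in homo against het mice by DESeq2 with and without independent filtering, and 0 to 1 when each library was left out in turn (1, Fyn, without het replicate 3). Leaving out each library moved the log2 fold change in homo against WT mice of Pcdhac1 between -0.090 and 0.044 and of Pcdhgc3 between -0.11 and 0.042, and that of Pcdhac2 was -0.070 without the 3 libraries rich in vomeronasal reads, with 1 homo library left, assumed to vary like the other groups. The causes were not tested. With the replicate block 0 members were called in each comparison. The numbers were not taken to pair the mice. Deviations of same-numbered libraries from their genotype means were correlated at -0.017, -0.097 and -0.12 between homo and WT mice. They were 0.093, -0.24 and -0.15 between het and WT, and 0.025, 0.39 and 0.45 between homo and het mice. Being deviations within groups of 3, these values cannot show whether the numbers pair littermates. Dividing by the whole exonic length in place of the lengths used changed levels per kb. So did dividing by GENCODE exons of no other gene on the same strand, read-through genes aside, an alternative chosen after seeing the data. Pcdhgc3 went from 21.6 to 11.8 or 16.4 CPM per kb, and Pcdhb17 from 6.33 to 4.44 CPM per kb by either. Pcdhb1 and Pcdhgc3 stayed first and second, while Pcdhac2 fell to rank 6 (4.35 CPM per kb) by whole length. Members with few reads, such as Pcdha8, were limited by depth, and how reads in constant exons were counted is not stated.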
